A study of Homo sapiens with 8 samples.

Results

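Genes that control pre-mRNA splicing, together with transcripts known for holding on to introns, were followed through 8 expression arrays of the bile duct cancer line HuCCT1. The set consists of 36 listed gene symbols, of 19775 genes with a probe set of their own on the array. A gene's value is that of its brightest probe set, taken on average over the arrays, and probe sets annotated to several genes were left out. By this rule 35 of the 36 were measured. SRSF2 has only probe sets annotated with several symbols and was not analysed here. The symbols were drawn up with earlier results of these arrays known, among them the low values in control shRNA replicate 4. The differences of that array therefore only describe the set, and nothing is inferred from how many there are. No filter on low values was applied, so all 35 entered every count.

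Splicing is carried out by the spliceosome, which finds exons with the help of SR proteins, RNA-binding proteins with a tail rich in arginine and serine. CLK kinases phosphorylate that tail and release SR proteins from nuclear speckles, where L-type cyclins, SON and SRRM2 also reside. Many of these genes control their own output: part of their transcripts keep an intron or include an exon with a premature stop codon, so the RNA stays in the nucleus or is degraded. CLK1 and OGT are well-known genes with such detained introns.

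All samples were HuCCT1 cells, an established cholangiocarcinoma line, grown with doxycycline at 100 ng/ml from 3 days before seeding, which switches on the shRNA that the cells carry. In 4 arrays this was a scrambled control shRNA, and in 4 it was YAP shRNA 1, a single hairpin against YAP1, the coactivator held in check by the Hippo pathway. Both groups thus share the cell line and the drug. Whether replicates were independent cultures is not given, so the p-values reflect variation among the arrays at hand, part of which may be technical. The series title names overexpression, while the labels name an shRNA.

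YAP1 itself stood at 12.59, 12.61, 12.77 and 12.60 in control arrays 1 to 4 and at 10.40, 10.55, 10.51 and 10.54 in the YAP shRNA arrays (log2 values). It fell 4.41-fold (limma adjusted p = 6.15e-07), and every YAP shRNA array lay below every control array. Epithelial markers of the line were bright, with means of the 7 measured markers between 13.38 and 13.40 in control arrays and 13.42 and 13.43 in YAP shRNA arrays. Of 18 markers of fibroblasts, leukocytes, endothelium and hepatocytes, COL1A1 alone lay above the median gene. The mean of the 6 fibroblast markers was 5.66 to 5.98 in control arrays and 5.83 to 5.94 in YAP shRNA arrays, with LUM 0.96 higher in control array 4 than in its group. That of 4 leukocyte markers was 4.76 to 4.95 and 5.04 to 5.19. Among the measured markers, COL1A1 (0.52), LYZ (0.86), CD14 (0.46), CDH1 (0.33) and KRT19 (0.15) rose with the YAP shRNA by limma and PTPRC (-0.22) fell, as log2 fold changes; PTPRC did not pass without control array 4 (limma adjusted p = 0.0663). Control array 4 stood apart from the other arrays on the second principal component, at -22.95 where the others lay between -6.39 and 12.29. Its 3' minus 5' log2 differences, a measure of RNA integrity, were 0.205 for GAPDH (0.181 to 0.205 in the other control arrays) and 0.883 for ACTB (0.987 to 1.10). Their part in the results below was not tested. In bulk RNA, fewer cells that express a gene and less of its RNA per cell cannot be told apart.

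The most visible feature of the set was control shRNA replicate 4. In that array 31 of the 35 members lay below all other control arrays, and 27 of 35 were the lowest of all 8 arrays, where 17% of all genes were. Against the mean of the other 3 control arrays, 12 members were at least 0.3 log2 lower and 0 were at least 0.3 higher. Over all 19775 genes, 6.2% were that much lower and 7.84% that much higher, and among the 8375 genes at least as bright as the dimmest member 5.28% were lower. The members' median difference was -0.16, beside 0.04 over all genes. On these brightest probe sets, low values were found in 4 of 5 CLK and cyclin L genes and in 0 of 6 genes of the U1 snRNP and the spliceosome. That contrast was not tested and is absent when any probe set of a gene counts: 5 of 5 and 6 of 6 genes then had one at least 0.3 lower. CLK1, at -0.35, was the nearest member past 0.3, and CLK4, at -0.29, the nearest short of it. No YAP shRNA array differed from the other 3 of its group by 0.3 for any member. Over all genes, 1.79%, 1.56%, 1.66% and 3.03% were that much lower in YAP shRNA arrays 1 to 4, and 3.48%, 1.55%, 1.46% and 1.74% that much higher.

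Control arrays 1, 2 and 3, set against the other 3 of their group in the same way, had 4, 4 and 6 members at least 0.3 higher, beside 3.24%, 2.66% and 2.53% of all genes, and 0 lower, beside 3.8%, 2.48% and 4.63%. Their reference contains control array 4. Against only the other 2 of control arrays 1 to 3, 0 members were 0.3 higher or lower in any of them, where 3.12%, 4.48% and 1.96% of all genes were higher and 3.29%, 2.46% and 3.55% lower.

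**Figure D1:**
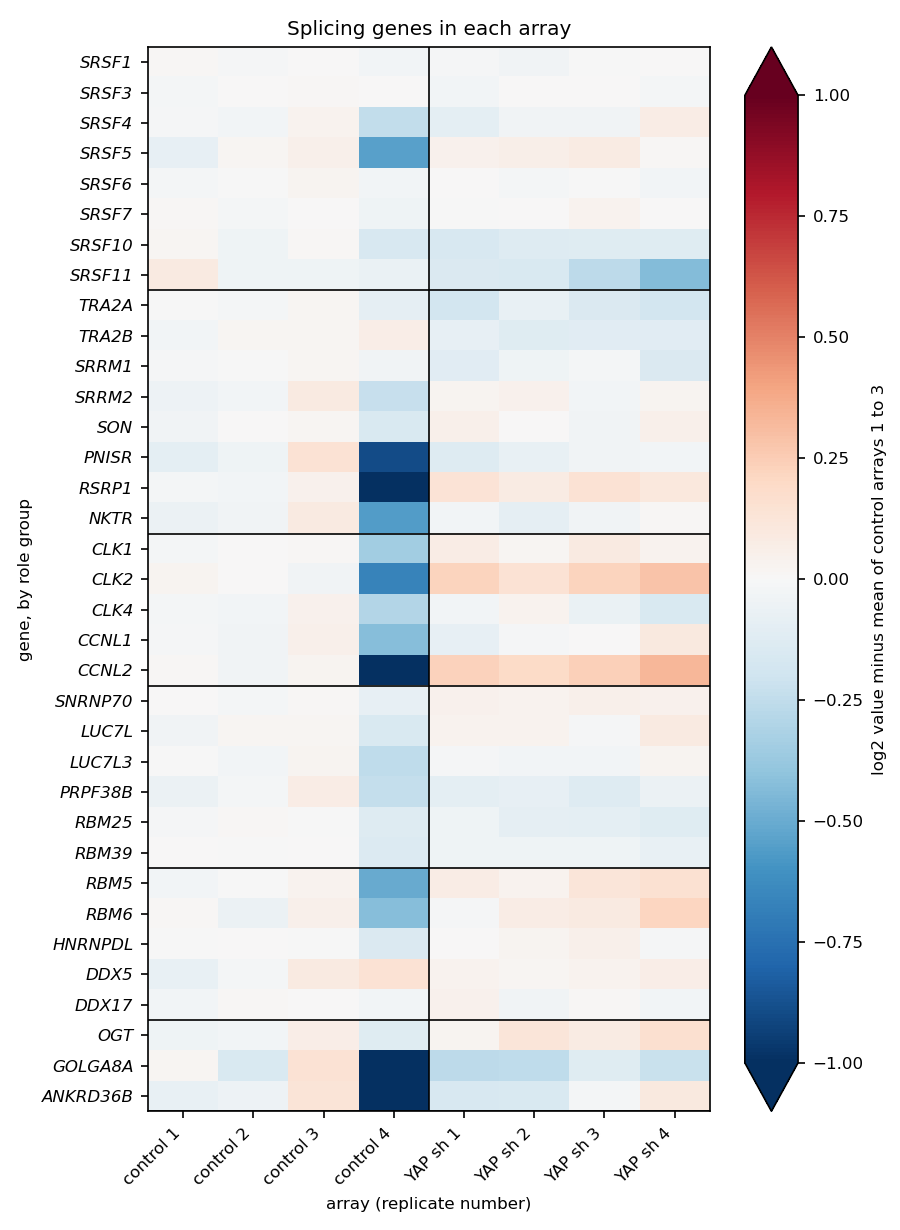
Log2 values of the 35 members in the 8 arrays, each gene drawn as its difference from the mean of control arrays 1 to 3 (blue lower, red higher; colours stop at 1 log2 in either direction). Rows are grouped by role with lines between groups; the column of control array 4 is blue for most genes, while the 4 YAP shRNA columns stay pale.

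**Figure D2:**
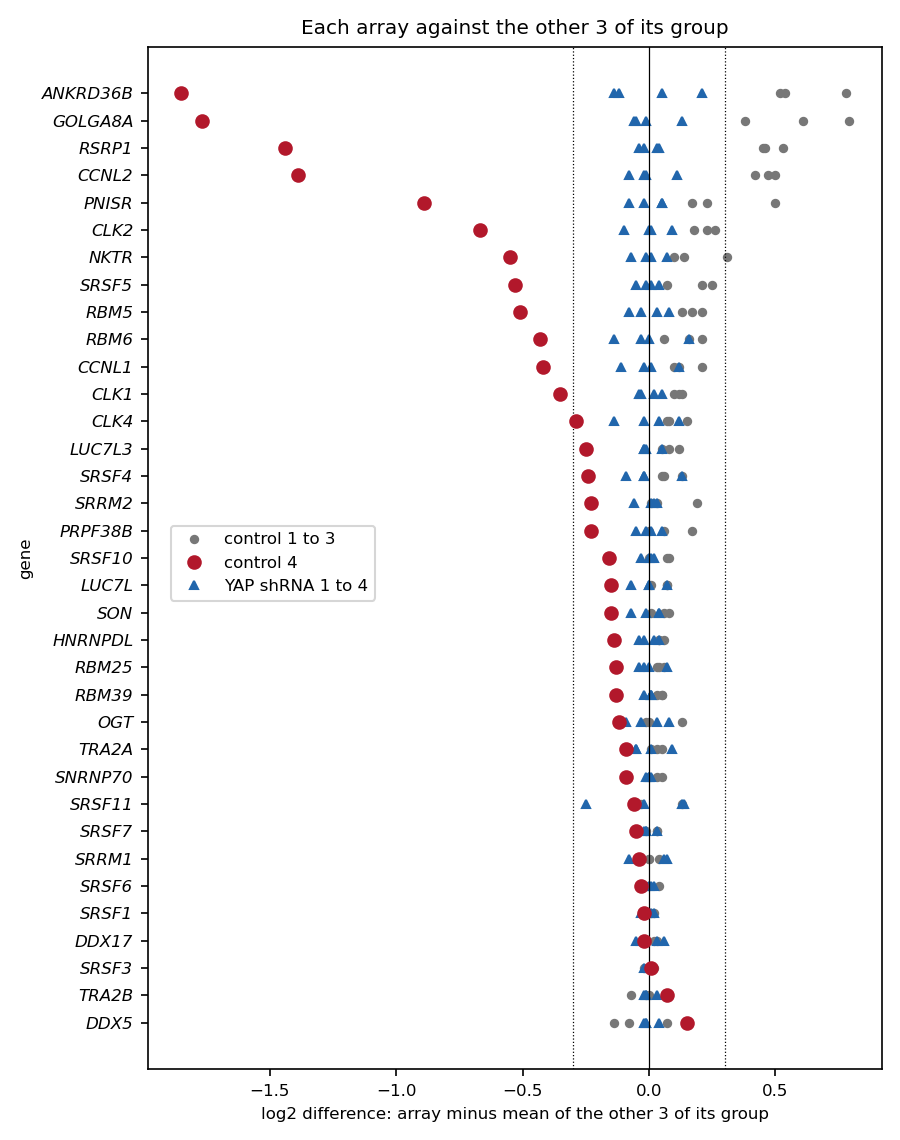
For each member (vertical axis), the log2 difference of each array from the mean of the other 3 arrays of its group (horizontal axis); the red points are control array 4, grey the other control arrays, blue triangles the YAP shRNA arrays, and dotted lines mark 0.3 log2. ANKRD36B, GOLGA8A, RSRP1 and CCNL2 lie at -1.39 or lower in control array 4, and grey points to the right of 0 have that array in their reference.

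The transcripts listed for retained introns held the lowest values. ANKRD36B, a member of an ankyrin repeat family with close copies, stood at 9.49, 9.51, 9.69 and 7.72 in control arrays 1 to 4 and at 9.40, 9.41, 9.54 and 9.66 in the YAP shRNA arrays. Control array 4 was 3.59-fold below the other 3 control arrays, while the other 7 arrays lay within 0.3 of each other. GOLGA8A, a golgin-like gene with the near-identical copy GOLGA8B, stood at 8.88, 8.71, 9.01 and 7.09 in control arrays and at 8.60, 8.61, 8.74 and 8.64 in YAP shRNA arrays, so control array 4 was 3.41-fold below its group. Reads of such copies on a shared probe set cannot be separated, and both values are uncertain as to the gene. OGT, the enzyme that adds O-linked N-acetylglucosamine to proteins and whose own transcript has a detained intron, showed little of this on its brightest probe set, with 12.52, 12.53, 12.63 and 12.44 in control arrays and 12.59, 12.68, 12.64 and 12.72 in YAP shRNA arrays.

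CLK kinases and cyclins L were low in control array 4 throughout. CCNL2, an L-type cyclin of nuclear speckles, stood at 10.56, 10.52, 10.58 and 9.16 in control arrays and at 10.78, 10.74, 10.79 and 10.88 in YAP shRNA arrays. The YAP shRNA arrays lay above all control arrays, and control array 4 was 2.62-fold below its group. CLK2, a kinase of SR proteins, read 9.67, 9.65, 9.61 and 8.98 against 9.87, 9.79, 9.87 and 9.93, again without overlap. CLK1, the best-studied kinase of the family, read 11.29, 11.31, 11.32 and 10.96 against 11.38, 11.33, 11.40 and 11.34. Control array 4 was also low for the kinase gene CLK4 and the cyclin gene CCNL1, with differences of -0.29 and -0.42.

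Among SR-like splicing activators, 3 of 8 members were low in control array 4 on their brightest probe sets, and 5 of 8 on any probe set. RSRP1, a small arginine- and serine-rich protein, stood at 10.50, 10.49, 10.56 and 9.07 in control arrays and at 10.65, 10.60, 10.66 and 10.62 in YAP shRNA arrays, a 2.72-fold gap within the control group. PNISR, a speckle protein rich in serine and arginine, and NKTR, a cyclophilin with an RS-rich tail, had differences of -0.89 and -0.55. The speckle scaffolds SON and SRRM2 had -0.15 and -0.23. TRA2B, which activates exons with purine-rich enhancers, was one of 4 members that were not below the other control arrays. It stood at 13.11, 13.16, 13.16 and 13.21 in control arrays and at 13.06, 13.02, 13.03 and 13.03 in YAP shRNA arrays, so that the groups did not overlap and the YAP shRNA arrays were lower. Its paralog TRA2A read 12.26, 12.25, 12.29 and 12.18 against 12.08, 12.19, 12.12 and 12.08, with YAP shRNA replicate 2 within the control range. SRRM1, a coactivator that bridges SR proteins and snRNPs, read 12.78, 12.79, 12.81 and 12.76 against 12.68, 12.75, 12.77 and 12.65.

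On their brightest probe sets, classical SR proteins had the smallest median difference of the role groups in control array 4, at -0.06. SRSF3, which binds exonic enhancers, lay at 13.56 to 13.59 in control arrays and at 13.55 to 13.58 in YAP shRNA arrays. SRSF1, the founding SR protein, had a difference of -0.02 in control array 4 and lay at 13.95 to 13.99 in YAP shRNA arrays. SRSF6 and SRSF7 likewise differed by no more than 0.05 between control array 4 and its group. SRSF5 was the 1 SR protein gene past 0.3 on its brightest probe set. It read 12.92, 13.02, 13.05 and 12.46 in control arrays and 13.04, 13.06, 13.08 and 13.01 in YAP shRNA arrays. When any probe set counts, 7 of 8 SR protein genes had one at least 0.3 lower in control array 4. SRSF10, an SR protein that represses splicing when dephosphorylated, read 11.90, 11.84, 11.89 and 11.72 against 11.72, 11.75, 11.76 and 11.76. SRSF11, a speckle protein of the family, read 11.70, 11.57, 11.57 and 11.55 against 11.47, 11.46, 11.35 and 11.18, with all YAP shRNA arrays below all control arrays. SRSF4 had a difference of -0.24 in control array 4.

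Genes of the U1 snRNP and the spliceosome were lowest of the 8 arrays in control array 4 in 6 of 6 cases, by small amounts. LUC7L3, a U1-associated protein, read 12.51, 12.49, 12.54 and 12.26 in control arrays and 12.50, 12.49, 12.49 and 12.54 in YAP shRNA arrays. Its relative LUC7L read 10.24, 10.29, 10.29 and 10.12 against 10.31, 10.31, 10.26 and 10.36, and RBM25, which also contacts U1, 12.38, 12.40, 12.39 and 12.26 against 12.35, 12.30, 12.29 and 12.27. SNRNP70, a core protein of the U1 snRNP, read 10.26, 10.24, 10.27 and 10.17 against 10.30, 10.29, 10.31 and 10.30. PRPF38B and RBM39, a spliceosomal factor and a U2AF-like coactivator, had differences of -0.23 and -0.13. On the brightest probe sets control array 4 was thus below its group in every one of these genes, by less than 0.3, while each gene had a further probe set at least 0.3 lower, down to -1.06 in RBM25.

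RNA-binding regulators and helicases were mixed. RBM5, a regulator of apoptosis gene splicing, read 10.28, 10.30, 10.34 and 9.80 in control arrays and 10.38, 10.34, 10.43 and 10.46 in YAP shRNA arrays. Its neighbour and paralog RBM6 read 10.34, 10.27, 10.38 and 9.90 against 10.32, 10.40, 10.42 and 10.54. HNRNPDL, a hnRNP D-like protein, read 13.39, 13.40, 13.39 and 13.25 against 13.40, 13.42, 13.44 and 13.38. For the DEAD-box helicase genes DDX5 and DDX17 the difference of control array 4 was 0.15 and -0.02 on the brightest probe sets, whereas the other 4 probe sets of DDX17 were at least 0.3 lower.

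**Figure D3:**
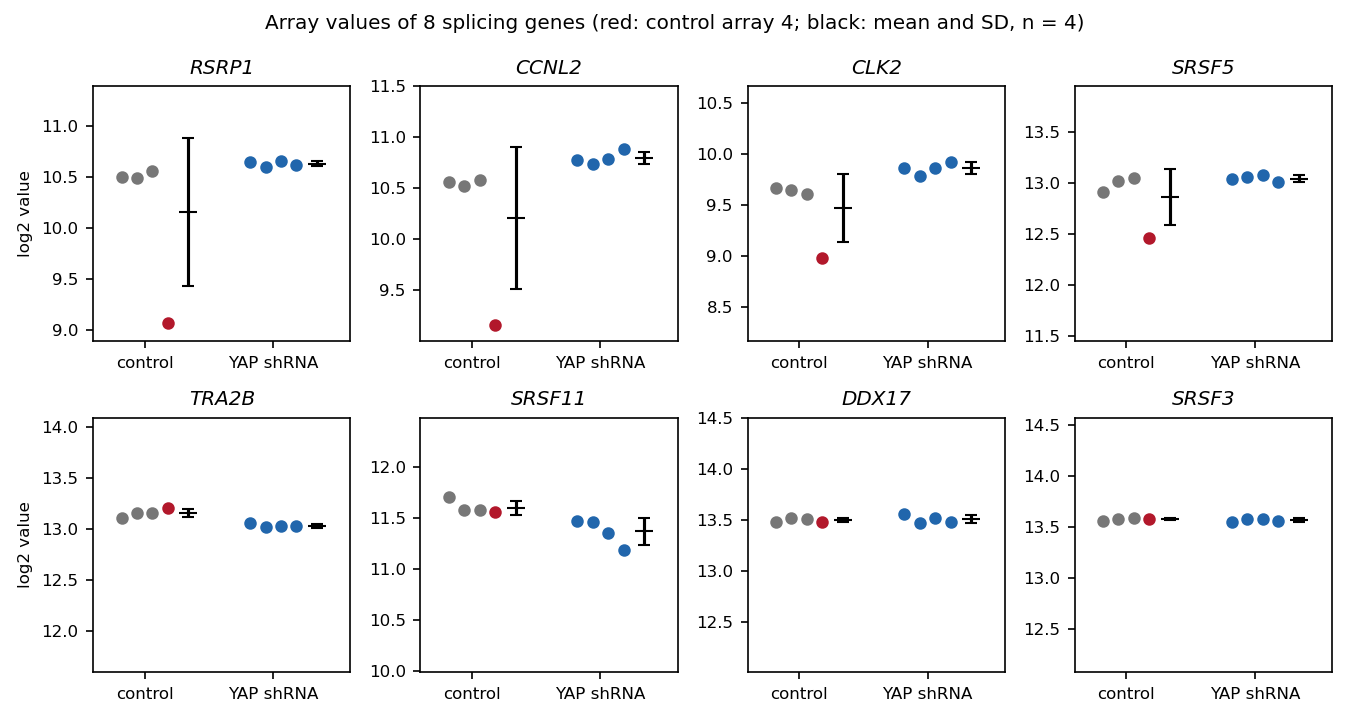
Log2 values in control and YAP shRNA arrays for 8 members (points are arrays, red is control array 4, black bars are mean and SD with n = 4; every vertical axis spans the same range but starts at a different level). In RSRP1, CCNL2, CLK2 and SRSF5 the red point lies apart from the other control arrays, and in TRA2B, SRSF11, DDX17 and SRSF3 it does not.

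The study set knockdown of YAP1 against the scrambled control. With all 8 arrays, limma called 0 of 35 members at an adjusted p below 0.05, 0 higher and 0 lower, while 16.7% of all genes (9.49% higher and 7.17% lower) and 26% of genes at least as bright as the dimmest member were called. At an unadjusted p below 0.05 the members numbered 5 (SRSF11, TRA2A, TRA2B, CLK2 and OGT), where 29.3% of all genes passed. The members' median log2 fold change, YAP shRNA minus control shRNA, was 0.05, beside 0.01 over all genes, with 24 members above 0 and 11 below. Control array 4, whose low values were known when the genes were listed, is part of the control mean, and without it the median was -0.01 with 17 above and 18 below, so no direction is read from the first count. The groups did not overlap for 8 members, 6 higher and 2 lower with the YAP shRNA, which is 22.9% beside 24.3% of all genes (13.4% higher and 10.9% lower). The smallest adjusted p belonged to TRA2B, with a log2 fold change of -0.12 ± 0.037 (SE; limma adjusted p = 0.0567), followed by SRSF11 with -0.23 ± 0.071 (limma adjusted p = 0.0612) and TRA2A with -0.13 ± 0.042 (limma adjusted p = 0.0787). These 3 genes passed when genes below the median level were left out, with limma adjusted p of 0.0119, 0.0233 and 0.0227. In that setting 39.3% of the genes tested were called (17.4% lower). They also passed with a spread that depends on intensity, where CLK2 and OGT passed as well, in the higher direction. There 21.5% of all genes were called (11.9% higher and 9.6% lower). The SRSF11 value rests on 1 probe set, of mean level 11.48. A further SRSF11 probe set of mean level 11.24 stood at 0.05 (limma adjusted p = 0.569 over all probe sets). Its others stood at 0.27 and -0.18 and were not called.

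Control array 4 set the size and the error of the largest fold changes. CCNL2, RSRP1, ANKRD36B and CLK2 had log2 fold changes of 0.60 ± 0.295, 0.48 ± 0.306, 0.40 ± 0.395 and 0.39 ± 0.146 (SE) with all arrays, and none passed (limma adjusted p = 0.227, 0.359, 0.573 and 0.115). Without control array 4 these became 0.25 ± 0.044, 0.12 ± 0.036, -0.06 ± 0.079 and 0.22 ± 0.043. The median standard error of the members was 0.063 with all arrays and 0.041 without that array, while over all genes it was 0.068 and 0.061. GOLGA8A went from 0.23 to -0.21, PNISR from 0.16 to -0.07 and NKTR from 0.10 to -0.04, none of them called with either set of arrays.

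Without control array 4, 4 members passed, 2 in each direction, or 11.4% beside 19.6% of all genes (11.4% higher and 8.25% lower). The cyclin gene CCNL2 rose 1.19-fold (limma adjusted p = 0.00678) and the kinase gene CLK2 rose 1.17-fold (limma adjusted p = 0.0102). TRA2A fell by 0.15 (limma adjusted p = 0.0359) and SRSF10 fell by 0.13 (limma adjusted p = 0.0313), each on the log2 scale. None of these 4 was called with all 8 arrays. RSRP1, at 0.12, and TRA2B, at -0.10, missed the threshold (limma adjusted p = 0.0633 and 0.0677). The median over all genes was then 0.02. The groups then did not overlap for 13 members, 6 higher and 7 lower, beside 31.6% of all genes (17.7% higher and 13.9% lower).

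**Figure D4:**
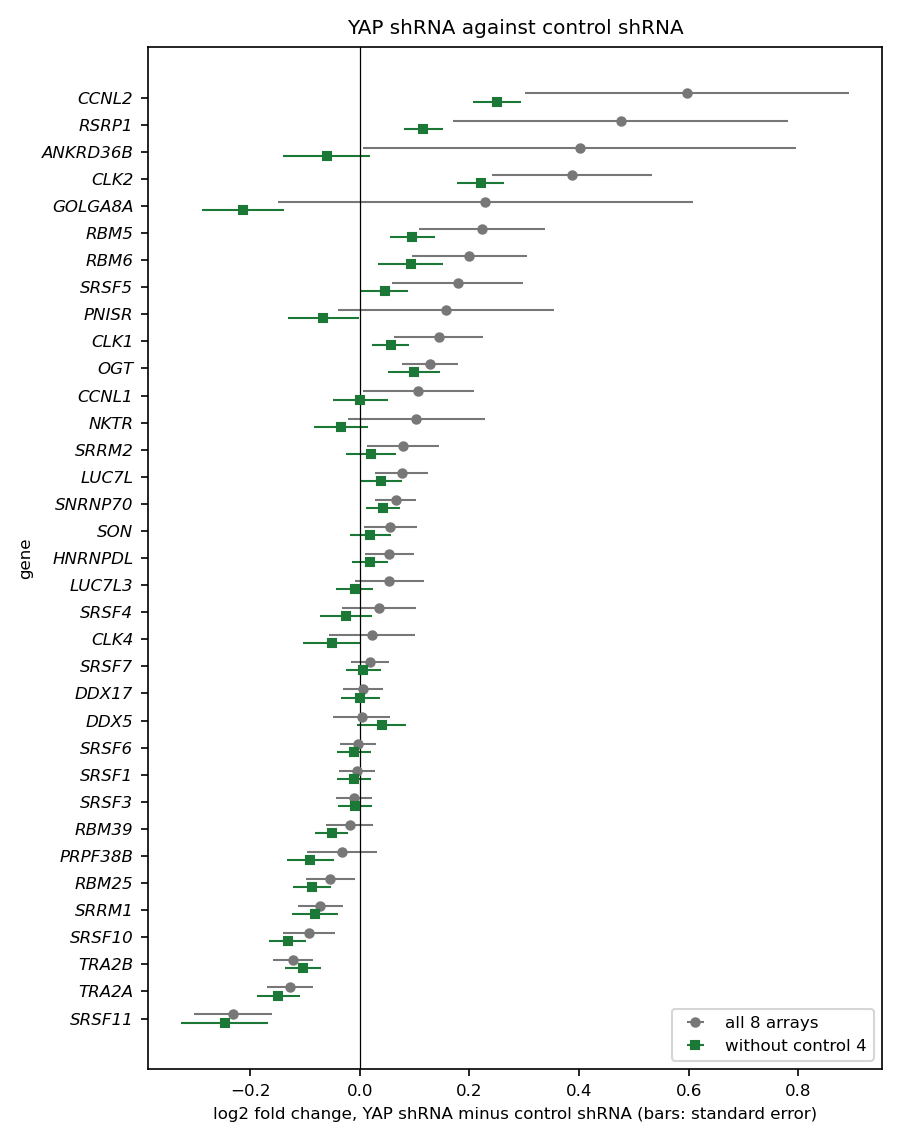
Log2 fold change of each member, YAP shRNA minus control shRNA, with its standard error, from the fit with all 8 arrays (grey circles) and without control array 4 (green squares). At the top of the plot the grey bars are long and the green values are closer to 0 (CCNL2 from 0.60 to 0.25), while TRA2A, TRA2B and SRSF11 at the bottom hardly shift.

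Most members have further probe sets, and these showed more of the low values than the brightest ones did. Their median level was 9.11, beside 11.69 for the brightest ones, and the part of this difference in level was not tested. Which parts of the transcripts they read was not examined. The 35 members have 140 probe sets with 1 symbol, and 31 members have more than 1. Beyond the brightest, 60 of 105 probe sets were at least 0.3 log2 lower in control array 4, or 57.1%, beside 9.8% of such further probe sets over all genes. Over all 140, 72 were that much lower, or 51.4% beside 8.07% of probe sets with 1 symbol. The median difference of the further ones was -0.37, beside 0.02 over all genes. In 18 members the brightest probe set did not reach 0.3 while another one did, and in all 30 of 35 members had at least 1 probe set that did. The array annotation used here does not say which of them lie in introns.

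Within single genes the spread between probe sets was wide. RBM6 had a difference of -0.43 on its brightest probe set and -1.40 and -1.81 on its others; the latter read 7.84, 8.05, 8.41 and 6.29 in control arrays and 7.75, 7.88, 7.88 and 8.46 in YAP shRNA arrays. SRSF4 had -0.24 on the brightest and -0.74 to -1.30 on the other 4. DDX17, steady at -0.02 on its brightest probe set, had -0.44 to -0.92 on the other 4, and SRSF1, at -0.02, had 3 of 7 others past 0.3, the lowest at -0.83. OGT had -0.12 on the brightest and -0.85 on the lowest, and RBM25 -0.13 and -1.06. By contrast SRSF10 and TRA2B had no probe set that was 0.3 lower. Probe sets of one gene thus ranged from near 0 to well below the group in the same array.

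**Figure D5:**
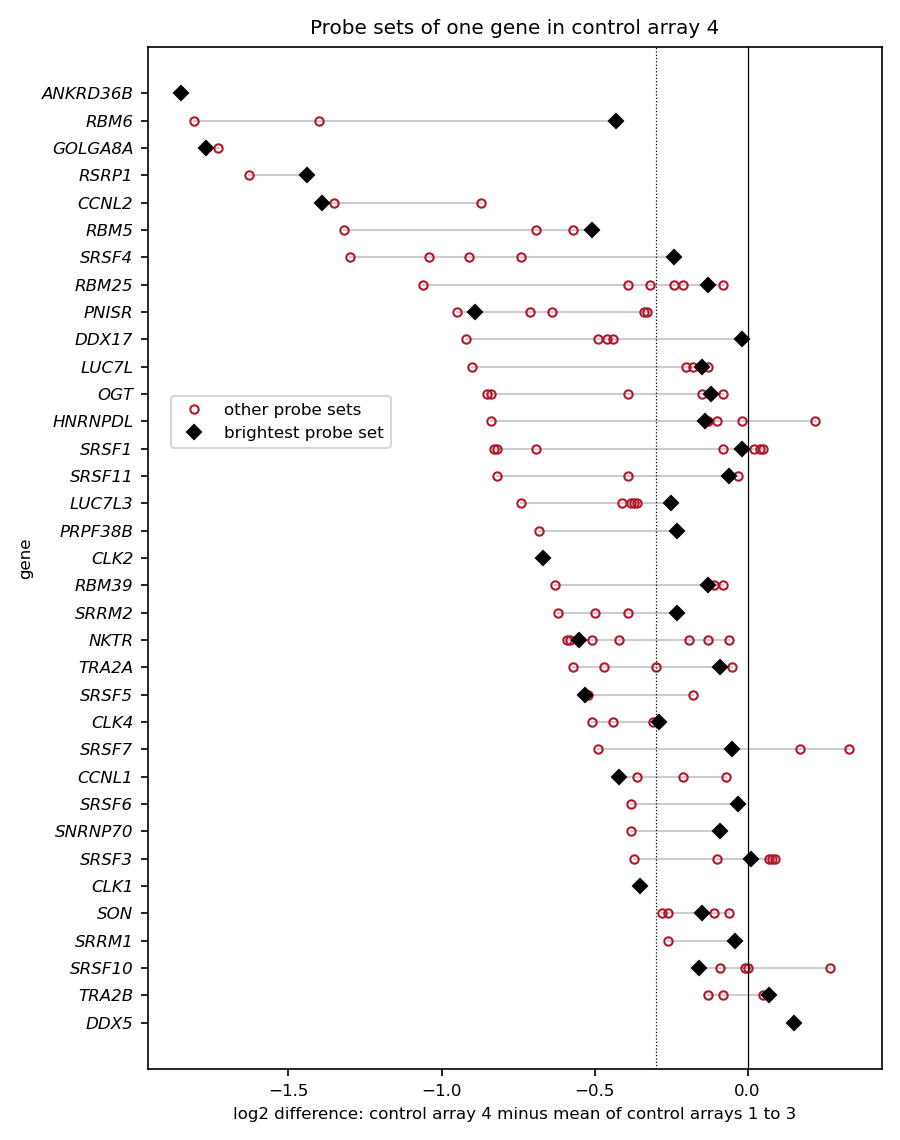
Log2 difference of control array 4 from the mean of control arrays 1 to 3 for the 140 probe sets of the members, by gene; filled diamonds are the brightest probe sets used above, open circles the others, and the dotted line marks -0.3. Genes such as SRSF4, DDX17 and RBM25 have a diamond at -0.24, -0.02 and -0.13 and circles as low as -1.30, -0.92 and -1.06.

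Tested probe set by probe set, 4 of 140 passed for the YAP shRNA, 1 higher and 3 lower, or 2.86%. Of the 41097 probe sets with 1 symbol, 11.9% passed (6.12% higher and 5.82% lower). Of all 54675 probe sets of the table, which include those with no symbol or several, 10.2% passed (5.25% higher and 4.96% lower). In SRSF3, 2 further probe sets fell by 0.21 (limma adjusted p = 0.0297 and 0.0428). The first read 12.78, 12.76, 12.69 and 12.83 in control arrays and 12.59, 12.54, 12.59 and 12.48 in YAP shRNA arrays, whereas the brightest SRSF3 probe set had a log2 fold change of -0.01. In SRSF7 a further probe set fell by 0.27 (limma adjusted p = 0.0191), from 9.85, 9.80, 9.78 and 9.98 to 9.59, 9.65, 9.55 and 9.54, and the brightest stood at 0.02. In RBM39 a further probe set rose by 0.25 (limma adjusted p = 0.0256), from 9.60, 9.62, 9.71 and 9.56 to 9.84, 9.86, 9.99 and 9.80, and the brightest stood at -0.02. In these probe sets the groups did not overlap, and control array 4 was not apart from its group by 0.3. Leaving out single arrays, control array 4 aside, left 0 to 1 risen and 0 to 2 fallen probe sets. Of all probe sets with 1 symbol, 4.01% to 5.08% then rose and 3.9% to 4.62% fell. Without control array 4 there were 6 risen and 3 fallen ones, while 13.7% of the 41097 probe sets with 1 symbol were called. The risen ones were 2 of CCNL2 and 1 each of CLK2, LUC7L, RBM39 and SRSF1, the last with a log2 fold change of 0.30. The fallen ones were 1 each of SRSF3, SRSF7 and TRA2B, and the second SRSF3 probe set above no longer passed (limma adjusted p = 0.0685).

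The wider splicing machinery was compared from lists of genes named for their function. Of 174 measured genes outside the set, 8 rose and 8 fell with the YAP shRNA. That is 9.2%, beside 16.7% of all genes (9.49% higher and 7.17% lower). The lists below are parts of these 174, and their counts are to be set beside the same shares. The median log2 fold change of the 174 was -0.02. In control array 4, 10 of the 174 were at least 0.3 log2 lower, or 5.75%, near the 6.2% of all genes, and 0 were that much higher. Of 44 core spliceosome genes 2 rose and 2 fell, with SNRNP27, a protein of the tri-snRNP, lower by the most (fell by 0.33) and the helicase gene DHX38 up by 0.19. SF3B3, of the U2 snRNP, rose by 0.17 and USP39 fell by 0.21. Of 26 hnRNP genes 0 rose and 2 fell, HNRNPA0 by 0.17 and HNRNPH1 by 0.16. HNRNPH1 was close to the threshold (limma adjusted p = 0.0493), and SF3B3 missed it without control array 4 (limma adjusted p = 0.0504).

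Regulators of tissue-specific splicing included the called gene with the largest fold change of these lists. MBNL3, a muscleblind-like regulator, rose by 0.92 (limma adjusted p = 4.36e-05), while QKI fell by 0.19, among 11 measured genes. NOVA1 was also called, at -0.19, but its mean level of 2.82 lies below the first quartile of all genes, 5.15. Of 18 other RBM genes 3 rose and 1 fell; RBM4 rose by 0.43 and RBM47 by 0.41, and RBM42 fell by 0.13. RBM4 was low in control array 4, with a difference of -0.47, and without that array it rose by 0.31. Among the other SR proteins SRSF8 rose by 0.16, among 8 minor spliceosome genes ZCRB1 fell by 0.18 (limma adjusted p = 0.0546 without control array 4), and among 15 genes of the nuclear exosome and poly(A) tail EXOSC4 rose by 0.23. EXOSC4 alone of the 15 passed.

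Several lists had no call with all 8 arrays. These were 6 genes of SR protein kinases and their phosphatase, 27 other RS-rich and speckle genes, 9 genes of nonsense-mediated decay, 4 nuclear-retained long noncoding RNAs and 6 other transcripts known for retained introns, each with 0 risen and 0 fallen by limma. At an unadjusted p below 0.05 they held 0, 1, 3, 0 and 0 genes, in that order, where 29.3% of all genes passed. Medians of their log2 fold changes lay between -0.05 and 0.03. In control array 4 the other RS-rich genes had a median difference of -0.11, the noncoding RNAs -0.21 and the other retained-intron transcripts -0.15, with 2 of 27, 1 of 4 and 0 of 6 past 0.3. MALAT1, an abundant speckle RNA, had -0.23, and ARGLU1, whose transcript keeps an intron, -0.28. The lowest value of these 5 lists was that of the noncoding RNA KCNQ1OT1, at -0.41, but its mean level of 6.34 lies below the median gene, 7.44. In the exosome and poly(A) list 3 of 15 genes were past 0.3, the most of any wider list. PABPN1, the nuclear poly(A)-binding protein, was lowest at -0.95, and its mean level of 6.47 is also below the median gene. ZFC3H1 and EXOSC10, at -0.49 and -0.36, had mean levels of 12.18 and 11.59, above the median gene. The members, 12 of 35, had been chosen with that array's values in view, so the counts are given side by side only.

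The promoters of the members that were lowest in control array 4 are shown. These genes were picked by those low values, and whether their promoters share any control was not tested. They are the 250 bases before the annotated start of ANKRD36B, RSRP1 and CCNL2, from RefSeq on GRCh38.p14, in the direction of the gene; all 3 lie on the minus strand. GOLGA8A had no entry. Of the measured members, 32 matched the table by symbol, with 40 windows. Capitals mark the GC box GGGCGGG and the CCAAT box, searched on both strands; the TEAD element GGAATG, the site of YAP's DNA-binding partners, was searched too and is in none of the 3 windows.
ANKRD36B, chr2:97589878-97590127: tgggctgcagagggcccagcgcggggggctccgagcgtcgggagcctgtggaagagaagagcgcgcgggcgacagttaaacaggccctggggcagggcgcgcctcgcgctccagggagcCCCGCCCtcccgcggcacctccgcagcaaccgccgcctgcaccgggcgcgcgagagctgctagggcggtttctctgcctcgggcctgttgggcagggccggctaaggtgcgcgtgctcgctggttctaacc
RSRP1, chr1:25338255-25338504: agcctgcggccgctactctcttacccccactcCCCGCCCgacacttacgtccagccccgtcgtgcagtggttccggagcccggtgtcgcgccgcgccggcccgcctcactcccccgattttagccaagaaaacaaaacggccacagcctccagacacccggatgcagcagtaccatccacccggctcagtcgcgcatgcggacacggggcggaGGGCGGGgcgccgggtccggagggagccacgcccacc
CCNL2, chr1:1399336-1399585: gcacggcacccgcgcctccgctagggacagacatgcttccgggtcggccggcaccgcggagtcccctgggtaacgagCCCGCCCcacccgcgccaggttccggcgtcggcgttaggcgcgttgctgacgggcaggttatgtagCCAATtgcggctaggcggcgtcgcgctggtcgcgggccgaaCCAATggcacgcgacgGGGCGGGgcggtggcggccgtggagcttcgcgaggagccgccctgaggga

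A GC box was present in 20 of 40 member windows, or 50%, beside 31.5% of all 35116 windows of this length, a CCAAT box in 12, or 30%, beside 32%, and the TEAD element in 5, or 12.5%, beside 11.9%. The motifs do not overlap one another in the 3 windows shown. ANKRD36B holds 1 GC box, RSRP1 holds 2, and CCNL2 holds 2 GC boxes and 2 CCAAT boxes. Member windows were rich in CG dinucleotides, with a median of 25.5 per window beside 11 over all windows. The TEAD element was found before DDX5, PNISR, SON and SRRM1, whose log2 fold changes with the YAP shRNA were 0.00, 0.16, 0.06 and -0.07 and did not pass the test. A match says only that these letters are present.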

How the data were processed

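RNA from 8 samples was amplified with a NuGEN kit, biotin-labelled and hybridised, per the labels' protocols. The authors deposited a table of log2 values by probe set, whose log base was inferred from a range of 1.72 to 14.9. How background was corrected, probes summarised and arrays normalized is not given in the sources used here. Array medians lay between 6.22 and 6.25, and the values were used unchanged. Symbols came from GEO's platform annotation, which can be old. Sample titles gave the groups. Genes were tested with limma (version 3.58.1, R 4.3.3) over 19775 genes, 1 probe set each, with Benjamini-Hochberg adjustment over all genes and calls at 0.05; 4 arrays per group limit the precision. Single arrays were set against the mean of the other 3 of their group, with 0.3 log2 as the limit and no test. Members and lists were chosen with earlier results of these data known. All members are named; those given array by array are, per role, up to 3 with the smallest adjusted p and the 1 with the largest difference in control array 4, and of each wider list up to 2 risen and 2 fallen genes. Genes given beyond that rule, among them RBM6's, SRSF3's, SRSF7's and RBM39's further probe sets, MALAT1, ARGLU1, KCNQ1OT1, PABPN1, ZFC3H1 and EXOSC10, were chosen after their values were seen. On simulated data for the YAP shRNA comparison (19775 genes), 26.9%, 59.7% and 98.5% of genes changed by 0.25, 0.5 and 1 log2 were recovered, with 5 false calls. Only 67, 67 and 66 genes of any level were changed there, whereas 16.7% of genes were called in the data. The adjusted p depends on that share, so recovery among the members was not measured. A planned description of protein sequences was not run. Figures were drawn with matplotlib 3.10.9.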

Additional observations from a re-analysis of the deposited data

Results flagged for a closer look

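In 76 groups of 4 values (35 members, YAP1 and 2 RNA integrity measures, in control and in YAP shRNA arrays), 1 array was far from its group in 16. About 1 in 20 groups is marked by chance. Control shRNA replicate 4 holds 10 of the 16, a number that cannot be read against chance, since its low values were known when the genes were listed. It was lowest for RSRP1 (9.07, others 10.49 to 10.56), CLK1 (10.96, others 11.29 to 11.32), CLK2 (8.98, others 9.61 to 9.67) and CCNL2 (9.16, others 10.52 to 10.58). It was also lowest for RBM25 (12.26, others 12.38 to 12.40), RBM39 (12.44, others 12.57 to 12.58), RBM5 (9.80, others 10.28 to 10.34), HNRNPDL (13.25, others 13.39 to 13.40), GOLGA8A (7.09, others 8.71 to 9.01) and ANKRD36B (7.72, others 9.49 to 9.69).

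Elsewhere, SRSF11 was high in control shRNA replicate 1 (11.70, others 11.55 to 11.57) and YAP1 in control shRNA replicate 3 (12.77, others 12.59 to 12.61). In YAP shRNA replicate 4, LUC7L3 was high (12.54, others 12.49 to 12.50) and RBM39 low (12.50, others 12.53). Between 3' and 5' probe sets, GAPDH differed least in control shRNA replicate 3 of its group (0.181), and ACTB most in YAP shRNA replicate 1 (1.16).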

How the results depend on the processing

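Of 728 member fold changes recomputed under alternatives, 668 kept their direction and their side of the threshold, 21 newly passed it in the same direction, 38 (of 17 members) changed sign with no call on either side, and SRSF7 turned to -0.27 (limma adjusted p = 0.0122) without probe sets ending in _x_at or _s_at, which leave 28 members. Members that fell numbered 1 with the mean of probe sets (7.04% of all genes fell) and 1 without _x_at and _s_at probe sets (6.38%). They numbered 3 without the genes of lowest level (11.3%), without genes below the median level (17.4%), with the intensity trend (9.6%) and at an adjusted p below 0.1 (9.98%), and 2 with array weights (8.57%). With the intensity trend 2 rose (11.9%). Left out in turn, single arrays gave 0 to 2 risen and 0 to 2 fallen members, with calls only without control shRNA replicate 4.

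For the wider lists, shares of all genes that rose and fell follow in brackets. Rises and falls numbered 5 and 4 without _x_at and _s_at probe sets (7.85% and 6.38%). They numbered 19 and 16 without genes below the median level (21.9% and 17.4%) and 19 and 15 with the intensity trend (11.9% and 9.6%). With the replicate block there were 4 and 1 (6.18% and 4.47%). At an adjusted p below 0.01 there were 4 and 1 (5.17% and 3.86%), and at 0.1 there were 18 and 13 (12.8% and 9.98%). Without the genes of lowest level (below the first quartile) 16 rose (14.6%), and with every probe set tested 5 fell (5.67%). Without single arrays rises ranged from 4 to 9 (6.89% to 11.4%) and falls from 3 to 9 (5.15% to 8.25%). For member probe sets, the brackets hold shares of all probe sets with 1 symbol. Those that rose and fell numbered 0 and 0 with the replicate block (2.84% and 2.68%). At an adjusted p below 0.01 they also numbered 0 and 0 (2.99% and 2.72%), and 5 fell at 0.1 (8.11%). Without single arrays 0 to 6 rose (4.01% to 7.19%) and 0 to 3 fell (3.9% to 6.51%). The replicate block called 0 members, beside 10.6% of all genes. Same-numbered arrays of the groups correlated at -0.17, -0.06, 0.00 and -0.21 in their deviations, and differently numbered ones at -0.24 to 0.22. Whether same-numbered arrays shared a culture or a day is not given and cannot be told from these values.

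Counting single arrays past the limit, the mean of probe sets gave 21 members lower in control array 4, 12 higher in control array 3, 2 lower in YAP shRNA array 1 and 1 higher in YAP shRNA array 2. Without _x_at and _s_at probe sets control arrays 1 and 2 had 2 higher each. A limit of 0.2 gave 7 and 10 higher in control arrays 2 and 3 and 1 in each direction in YAP shRNA array 4, and a limit of 0.5 gave 2 and 1 higher in control arrays 1 and 2. Against the other 2 of control arrays 1 to 3, a reference added after the data were seen, these counts were 0, 0 and 0. For the changed probe sets and limits, shares of all genes were not computed, so nothing is read from those counts. Of 133 recomputed member differences of control array 4, 74 changed by less than the gene's SD over control arrays 1 to 3, and 59 moved by more. None of those at -0.3 or lower turned positive. Smaller ones could change sign, as SRSF7 did, from -0.05 to 0.17 without _x_at and _s_at probe sets. The ACTB 3' minus 5' difference between groups, 0.033, ranged from -0.013 to 0.069 without single arrays. With 4 arrays per group, changes of 0.25 log2 were mostly missed on simulated data. Far fewer genes were changed there than were called in the data, so this does not measure recovery for the members.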
